A study of Mus musculus with 20 samples.

Results

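Loss of p53 was examined in dysplastic gastric organoids, which are three-dimensional cultures of stomach epithelium grown from mouse tissue. Messenger RNA had been sequenced in 12 libraries from 4 dysplastic lines, out of 20 libraries from 8 lines in all. Lines 794 and 801 carried the label p53 KO with the knockout made in vivo, and lines 565 and 752 carried the label WT. Each of these lines had 3 libraries, which were repeats of that line, so the comparison rests on 2 KO lines against 2 WT lines. All lines were of strain BL/6 and all were grown in conditioned medium. The dysplastic WT lines shared the label dysplastic with the KO lines, and the labels do not say how the dysplasia arose, which allele or driver produced the knockout, or whether lines came from separate animals. The other lines were non-dysplastic: line 650 was an in vivo KO, line 1270 an ex vivo KO, and lines 300 and 1269 were WT, each with 2 libraries. They entered the estimate of the spread and are used where stated.

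The protein p53, encoded by Trp53, is a transcription factor that is stabilised by DNA damage and other stress and then raises the transcription of genes for cell-cycle arrest, apoptosis and DNA repair. One of its targets, Mdm2, encodes the ubiquitin ligase that degrades p53, and the Arf product of the Cdkn2a locus inhibits Mdm2. Dysplasia is a precancerous change of the stomach epithelium.

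Levels are given as CPM, the usual depth-scaled unit of read counts, with TMM scaling between libraries. The 12 libraries held 5.67e6 to 13.8e6 counts, and the line sums 29.4e6 to 36.9e6. Within a line, libraries 1 and 2 were the closest pair in each of the 4 lines, and library 3 stood apart from both: over 10514 genes with at least 5 CPM the standard deviation of the log2 difference was 0.18 to 0.33 between libraries 1 and 2, and 0.32 to 0.80 for pairs with library 3. Library 3 stood apart in KO and WT lines alike. The 5 epithelial markers (Epcam, Cdh1, Krt8, Krt18 and Krt19) summed to 9169 to 13625 CPM in KO libraries and 11999 to 14160.2 CPM in WT libraries. The 10 immune markers summed to 19.6 to 44.4 CPM in KO and 15.3 to 38.8 CPM in WT libraries, nearly all from Cd68, while Tyrobp was at 0 in 12 libraries and Cd3e in 11. The 8 fibroblast markers summed to 5.67 to 25.05 CPM in KO and 3.36 to 10.9 CPM in WT libraries. The gastric label rested on mixed markers: the 5 pit-cell markers summed to 97.7 to 7939 CPM in KO and 111 to 195 CPM in WT libraries with Tff1 near 0 throughout, and of the parietal pair Atp4b was at 0 in 12 libraries. Xist, transcribed from the inactive X chromosome, had 256 to 1711 CPM, and the Y-linked Ddx3y at most 0.0934 CPM in the 12 libraries. In bulk RNA, fewer cells of a type and less RNA per cell cannot be told apart.

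Across all 13476 genes tested on line sums, edgeR's quasi-likelihood test of KO against WT dysplastic lines found 0 genes at an adjusted p under 0.05, and 588 genes (4.36%) had an unadjusted p under 0.05. The scaling centres the libraries on each other, and the median log2 fold change, KO over WT, was 0.01, with quartiles at -0.15 and 0.23. The tails were unequal, since 888 genes (6.59%) lay above 1 and 289 genes (2.14%) below -1. DESeq2 on the same line sums called 46 genes higher (0.348%) and 23 lower (0.174%) in KO. Limma-voom on the libraries, with libraries of a line correlated at 0.22, called 63 higher (0.497%) and 38 lower (0.300%), and 38 in all once the replicate number was a block. Both tools called 41 genes, 25 higher and 16 lower. The libraries that stood apart, left out of fits together, were library 3 of each dysplastic line and library 2 of the non-dysplastic lines 300 and 650. Without them limma-voom called 1 gene and DESeq2 68. The counts also moved with single lines. With line 794 left out limma-voom called 69 genes, with line 801 left out 987, with line 565 left out 2 and with line 752 left out 0, and DESeq2 called 2 without 794, 7 without 565, 6 without 752 and 535 without 801. With 2 lines a side, an exact permutation test of a single gene over lines cannot go below p = 0.333.

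Genes are therefore described by their levels. In 295 genes (2.19%) the 6 KO libraries all lay above the 6 WT libraries, and in 219 genes (1.63%) they all lay below, 514 in all (3.81%); such genes are called separated here, upward or downward. With 3 repeats of each line this is a description of levels and no test of genotype. Without the libraries numbered 3 the counts were 814 (6.04%) above and 966 (7.17%) below. Log2 fold changes are edgeR's values, KO over WT, with ± the SE. Adjusted p-values are Benjamini-Hochberg values over all genes tested and are printed where limma-voom or DESeq2 called the gene. Beside a fold of the dysplastic lines, a tool that is not named did not call the gene. Each p-value belongs to that tool's own fold change, which can differ from edgeR's. Where limma-voom lost the call with the replicate number as a block, that value follows in parentheses as blocked.

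Trp53 had 6.26, 4.43 and 11.4 CPM in KO line 794 and 24.3, 20.7 and 18.1 CPM in KO line 801, against 165, 144 and 148 CPM in WT line 565 and 144, 115 and 98.1 CPM in WT line 752. All KO libraries lay below all WT libraries, and line 801 kept more Trp53 reads than line 794. Averaged over lines it had 14.6 ± 10.8 CPM (SD, n = 2 KO lines), against 138 ± 22.6 CPM (SD, n = 2 WT lines), and its log2 fold change was -3.24 ± 0.86. Its adjusted p was 0.00172 by limma-voom, 0.00472 by DESeq2 and 1 by edgeR. With lines or libraries left out the fold stayed between -4.35 and -2.61, but calls were lost. By limma-voom the adjusted p was 0.0586 without the libraries that stood apart, 0.185 without line 565 and 0.101 without line 752. With DESeq2, leaving out 794, 565 or 752 in turn gave adjusted p-values of 0.464, 0.279 and 0.188 in that order. Which part of the gene the knockout removes is not given in the sources used here, and the remaining reads could not be traced to exons in a table of counts per gene.

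**Figure D1:**
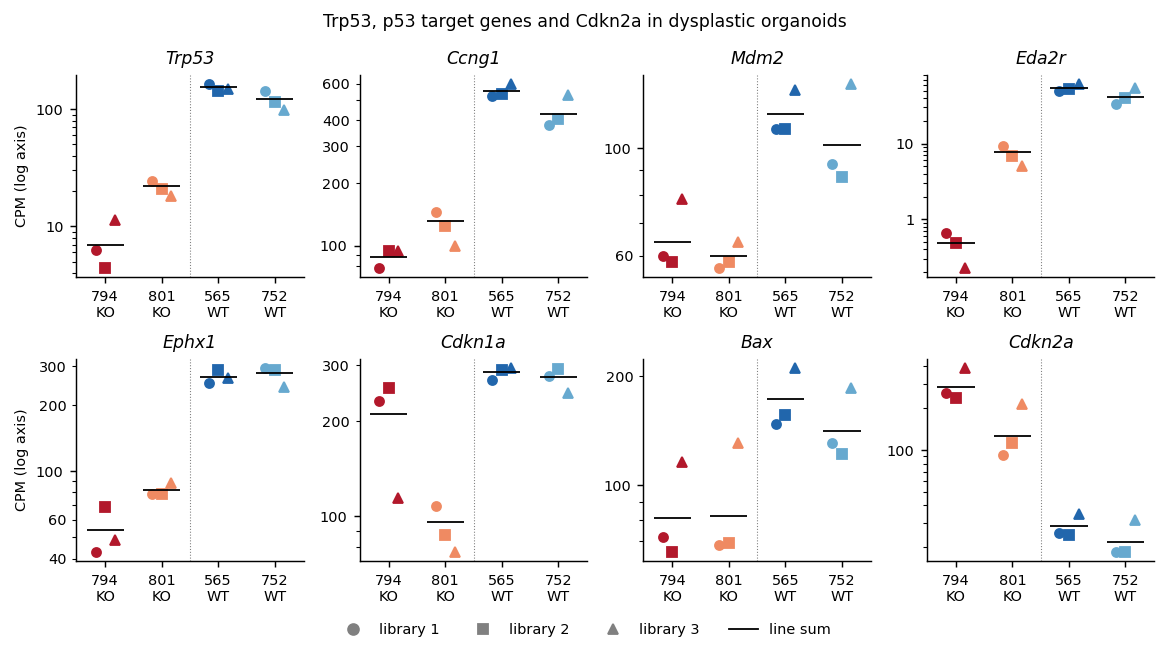
CPM on a log axis of Trp53, of 6 p53 target genes and of Cdkn2a in each library (symbols by library number) of the KO lines 794 and 801 and the WT lines 565 and 752, with a bar at the line sum. Trp53, Ccng1, Mdm2, Eda2r and Ephx1 lie lower in every KO library than in any WT library, Cdkn2a lies higher, and Cdkn1a and Bax overlap.

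The promoters of Ccng1 and Mdm2 are shown because each holds the decamer of the p53 response element within the 300 bases from 250 before to 50 after the RefSeq start site (build GRCm38.p6), at chr11:40755237-40755536 on the minus strand for Ccng1 and at chr10:117710709-117711008 on the minus strand for Mdm2. Capitals mark the match, which starts at position -185 in Ccng1 and -186 in Mdm2 relative to the start site.
Ccng1: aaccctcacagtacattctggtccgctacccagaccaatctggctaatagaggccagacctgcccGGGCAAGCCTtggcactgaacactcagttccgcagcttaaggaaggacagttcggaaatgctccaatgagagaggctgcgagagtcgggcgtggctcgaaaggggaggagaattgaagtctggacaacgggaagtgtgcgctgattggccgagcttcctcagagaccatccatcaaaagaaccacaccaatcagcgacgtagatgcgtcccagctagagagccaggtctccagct
Mdm2: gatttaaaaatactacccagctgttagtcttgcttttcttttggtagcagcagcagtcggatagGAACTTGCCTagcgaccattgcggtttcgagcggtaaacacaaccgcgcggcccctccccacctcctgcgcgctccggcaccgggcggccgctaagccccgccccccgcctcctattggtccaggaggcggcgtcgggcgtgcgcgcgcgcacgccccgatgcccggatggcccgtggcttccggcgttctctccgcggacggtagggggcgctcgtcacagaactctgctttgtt
On either strand, the decamer occurred in 13 of 41 promoters of the p53 target lists (31.7%), against 836 of 10079 promoters of all tested genes (8.29%). A match is a run of letters in this window and not a measured binding site.

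Arrest targets of p53 were mostly lower in KO. Of 12 tested, 8 had a negative log2 fold change, and the median was -0.77 against 0.01 over all genes. 5 were separated downward (1.63% of all genes were) and 0 upward. Ccng1, which encodes cyclin G1, a feedback regulator of p53, had 78.5, 94.7 and 94.3 CPM in KO line 794 and 145, 125 and 100.2 CPM in KO line 801, against 521, 534 and 599 CPM in WT line 565 and 378, 407 and 527 CPM in WT line 752; its log2 fold change was -2.16 ± 0.59, adjusted p 0.00343 by limma-voom and 0.0209 by DESeq2. The highest KO library of Ccng1, at 145 CPM, lay far below the lowest WT library, at 378 CPM. Zmat3, an RNA-binding zinc-finger protein, had 23.7 CPM in 794 and 39.1 CPM in 801, against 127 CPM in 565 and 96.4 CPM in 752, a log2 fold change of -1.83 ± 0.44, adjusted p 0.0186 by limma-voom and 0.01502 by DESeq2. Psrc1, a spindle protein, had 9.43 CPM in 794 and 13.6 CPM in 801, against 44.4 CPM in 565 and 32.9 CPM in 752, a log2 fold change of -1.74 ± 0.44, adjusted p 0.0276 by limma-voom (0.0645 blocked) and 0.0307 by DESeq2. In these 3 genes line 794 was the lowest line and line 801 lay between it and WT. Phlda3, an inhibitor of Akt signalling, had 14.5 CPM in 794 and 19.8 CPM in 801, against 67.8 CPM in 565 and 49.2 CPM in 752, a log2 fold change of -1.77 ± 0.87. Trp53inp1, a stress-induced partner of p53, had 33.7 CPM in 794 and 39.5 CPM in 801, against 105 CPM in 565 and 88.7 CPM in 752, a log2 fold change of -1.405 ± 0.66. No test called either of them. Cdkn1a, which encodes the cyclin-dependent kinase inhibitor p21, was not separated. It had 232, 255 and 114 CPM in KO line 794 and 108, 86.8 and 76.998 CPM in KO line 801, against 271, 290.2 and 295 CPM in WT line 565 and 277, 292 and 244 CPM in WT line 752. Library 2 of line 794, at 255 CPM, exceeded library 3 of line 752, at 244 CPM, while line 801 stayed below every WT library. Without the libraries numbered 3, Cdkn1a was separated downward too.

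Of 16 apoptosis targets tested, 11 were negative (47.4% of all genes were), with a median of -0.39, and 3 were separated, all downward (1.63% of all genes). Without the libraries numbered 3, 6 apoptosis targets and 6 arrest targets were separated downward, where 7.17% of all genes were. Eda2r, a receptor of the TNF receptor family that binds ectodysplasin A2, had 0.663, 0.483 and 0.228 CPM in KO line 794 and 9.34, 6.805 and 5.08 CPM in KO line 801, against 49.3, 52.4 and 61.6 CPM in WT line 565 and 33.3, 39.5 and 54.4 CPM in WT line 752; its log2 fold change was -3.55 ± 1.76, adjusted p 0.0352 by limma-voom (0.0958 blocked). DESeq2 on line sums did not call Eda2r (adjusted p 0.942), and limma-voom's own log2 fold change was -4.68 ± 1.04. Line 794 was below 1 CPM in every library and line 801 lay between it and WT, the same order of the lines as for Trp53. Aen, an apoptosis-enhancing exonuclease, had 11.7 CPM in 794 and 29.9 CPM in 801, against 59.3 CPM in 565 and 44.1 CPM in 752, a log2 fold change of -1.31 ± 0.46, adjusted p 0.0198 by limma-voom. Ei24 had 138 CPM in 794 and 146 CPM in 801, against 229 CPM in 565 and 216 CPM in 752, a log2 fold change of -0.65 ± 0.21, adjusted p 0.0433 by limma-voom (0.0802 blocked). Bax, the pore-forming effector of mitochondrial apoptosis, had 72.1, 65.4 and 116 CPM in KO line 794 and 68.5, 69.2 and 131 CPM in KO line 801, against 148, 156 and 211 CPM in WT line 565 and 131, 122 and 185 CPM in WT line 752. Library 3 was the highest Bax library of each line, so the groups overlapped; without these libraries they were separated. The log2 fold change of Bax was -0.94 ± 0.25. Pmaip1 and Bbc3, which encode the BH3-only proteins Noxa and Puma, overlapped. Pmaip1 had 129.9 CPM in 794 and 101 CPM in 801, against 109.5 CPM in 565 and 112 CPM in 752. Bbc3 had 10.3 CPM in 794 and 7.54 CPM in 801, against 12.1 CPM in 565 and 11.9 CPM in 752.

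Among targets of feedback and repair, 8 of 10 were negative (47.4% of all genes), with a median of -0.38, and 3 were separated, all downward (1.63% of all genes). Mdm2 had 59.7, 58.05 and 78.4 CPM in KO line 794 and 56.6, 58.3 and 63.97 CPM in KO line 801, against 109.5, 109.8 and 132 CPM in WT line 565 and 92.6, 87.1 and 136 CPM in WT line 752; its log2 fold change was -0.83 ± 0.4003. The KO lines were alike and each KO library lay below each WT library. Mgmt, which removes alkyl groups from guanine, had 0, 0.0805 and 0 CPM in KO line 794 and 2.72, 2.81 and 4.23 CPM in KO line 801, against 7.28, 9.15 and 15.7 CPM in WT line 565 and 11.2, 10.04 and 22.4 CPM in WT line 752. In line 794 it was read in 1 of 3 libraries, while line 801 held an intermediate level. Ercc5, an endonuclease of nucleotide excision repair, had 16.6 CPM in 794 and 20.4 CPM in 801, against 34.2 CPM in 565 and 31.3 CPM in 752, a log2 fold change of -0.83 ± 0.298. No test called any of these 3 genes.

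The metabolic and stress targets were split. The median log2 fold change of the 13 tested was 0.23, with 7 positive and 6 negative, yet the 4 separated genes were all lower in KO (1.63% of all genes were). That median was 0.09 without the libraries that stood apart, 0.08 without line 752, -0.07 without line 794, -0.54 without line 801 and -0.04 by limma-voom. Ephx1, microsomal epoxide hydrolase, had 42.9, 68.9 and 48.8 CPM in KO line 794 and 78.6, 79.02 and 88.2 CPM in KO line 801, against 252, 288 and 264 CPM in WT line 565 and 296, 289 and 243 CPM in WT line 752; its log2 fold change was -2.02 ± 0.41, adjusted p 0.00104 by limma-voom and 0.00127 by DESeq2. The highest KO library, at 88.2 CPM, was far below the lowest WT library, at 243 CPM, and the WT lines were close to each other. Ak1, an adenylate kinase, had 0.461 CPM in 794 and 1.96 CPM in 801, against 8.25 CPM in 565 and 5.62 CPM in 752, a log2 fold change of -2.52 ± 1.16. Sesn2, a stress sensor upstream of mTORC1 that is also on the list of the unfolded protein and amino acid response, had 22.95 CPM in 794 and 18.2 CPM in 801, against 40.3 CPM in 565 and 30.7 CPM in 752, a log2 fold change of -0.79 ± 0.34. Aldh4a1, a mitochondrial enzyme of proline breakdown, had 29.5 CPM in 794 and 27.9 CPM in 801, against 43.6 CPM in 565 and 35.95 CPM in 752, a log2 fold change of -0.47 ± 0.25. No test called these last 3 genes.

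**Figure D2:**
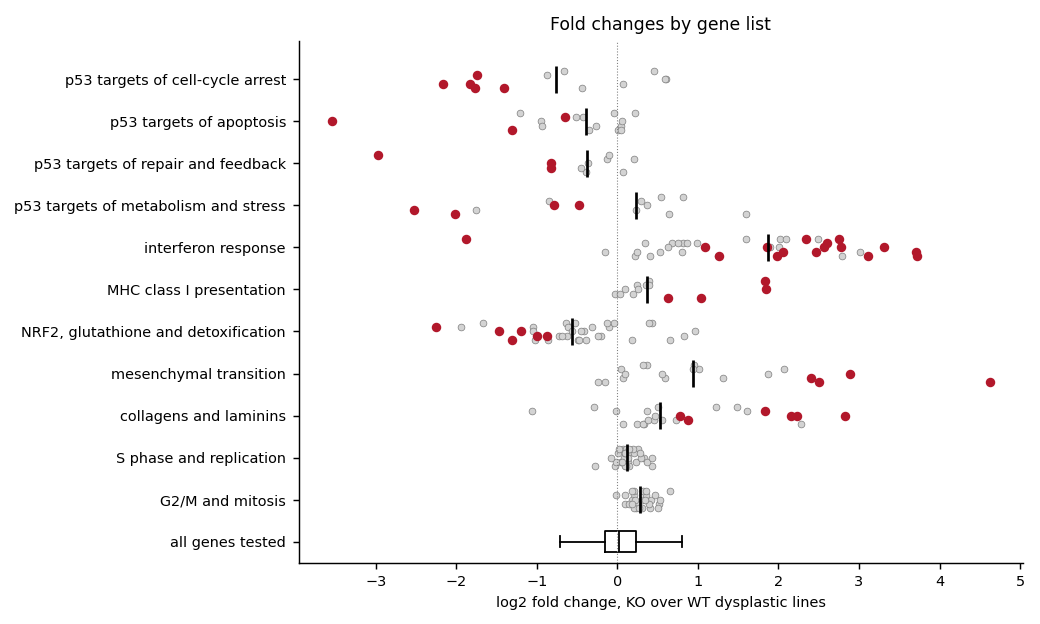
Log2 fold change, KO over WT dysplastic lines, of the tested members of 11 gene lists, one point a gene, with red points for genes whose 6 KO and 6 WT libraries do not overlap and a bar at the list's median. The box shows the quartiles of all genes tested. Separated p53 targets lie on the negative side, the interferon list has its median at 1.87 and the NRF2 list at -0.57.

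Cdkn2a was far higher in KO, and it had the lowest adjusted p of the 9 cell-cycle inhibitors tested. The locus encodes p16, which inhibits the cyclin D kinases, and Arf. Cdkn2a had 259, 236 and 391 CPM in KO line 794 and 92.2, 112 and 216 CPM in KO line 801, against 25.5, 24.5 and 34.4 CPM in WT line 565 and 18.5, 18.6 and 31.6 CPM in WT line 752; its log2 fold change was 3.03 ± 0.39, adjusted p 5.503e-04 by limma-voom and 1.17e-10 by DESeq2. The lowest KO library, at 92.2 CPM, exceeded the highest WT library, at 34.4 CPM, and line 794 exceeded line 801. Counts per gene symbol do not tell the p16 and Arf transcripts apart. Cdkn1c, encoding p57, had 11.1 CPM in 794 and 13.1 CPM in 801, against 6.56 CPM in 565 and 6.31 CPM in 752, a log2 fold change of 0.91 ± 0.33. Of the 9 inhibitors, 2 were separated upward (2.19% of all genes were), Cdkn2a and Cdkn1c. On the lower side, 2 were separated by small margins (1.63% of all genes). Cdkn2c, encoding p18, had 11.3 CPM in 794 and 11.1 CPM in 801, against 14.2 CPM in 565 and 14.7 CPM in 752, a log2 fold change of -0.36 ± 0.22. Rbl2, a pocket protein related to Rb, had 33.6 CPM in 794 and 39.7 CPM in 801, against 44.3 CPM in 565 and 44.3 CPM in 752, a log2 fold change of -0.27 ± 0.15. No test called these last 3 genes.

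Proliferation genes differed little. Of 28 genes of G2/M and mitosis, 27 were positive, with a median of 0.28. Of 30 genes of S phase and replication, 26 were positive, with a median of 0.11, where 52.5% of all genes were positive. The medians moved with single lines: without line 565 they were 0.45 for mitosis and 0.43 for S phase, and without line 752 0.096 and -0.11. Without line 794 the S phase median was 0.24, and without line 801 0.04. No gene of either list was separated (3.81% of all genes were), and none was called by limma-voom or DESeq2. None had an unadjusted p under 0.05 by edgeR (4.36% of all genes). Top2a, topoisomerase II alpha, had 412 CPM in 794 and 422 CPM in 801, against 389 CPM in 565 and 263 CPM in 752. Mki67, the Ki-67 antigen, had 287 CPM in 794 and 336 CPM in 801, against 355 CPM in 565 and 273 CPM in 752. In both, as in the following pair, library 3 was the lowest of its line in each of the 4 lines. Rrm1, a ribonucleotide reductase subunit, had 202 CPM in 794 and 286 CPM in 801, against 283 CPM in 565 and 197 CPM in 752. Mcm6, a subunit of the replicative helicase, had 137 CPM in 794 and 224 CPM in 801, against 210.5 CPM in 565 and 152 CPM in 752. For Mki67, Rrm1 and Mcm6 the WT line 565 lay above the KO line 794.

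Genes of the interferon response were higher in KO for the most part. Interferons act through a complex of transcription factors that includes IRF9, which binds the interferon-stimulated response element and raises antiviral genes. Of 38 tested, 36 had a positive log2 fold change, and the median was 1.87. A member low in WT, such as Gbp3, can pass the filter on low counts through its KO libraries, which favours positive values. In all, 15 were separated upward (2.19% of all genes were) and 1, Epsti1, downward. Without the libraries numbered 3, 25 were separated upward (6.04% of all genes). Limma-voom called 5 higher (0.497% of all genes) and 1 lower (0.300%), and DESeq2 called 10 higher (0.348%) and 0 lower. Line 794 lay above both WT lines in 34 genes of the list (41.5% of all genes) and line 801 in 31 (37.3%). The list's median was 1.19 without line 794 and 2.03 without line 801. Immune markers, summed, held 19.6 to 44.4 CPM in KO and 15.3 to 38.8 CPM in WT libraries, and their part in the result was not tested.

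The promoters of Ifit1, Isg15 and Oas3 are shown because each holds the core of the interferon-stimulated response element, in capitals. In Ifit1 the core is read on the opposite strand, as its reverse complement. The promoters lie at chr19:34640639-34640938 on the plus strand, at chr4:156200769-156201068 on the minus strand and at chr5:120777610-120777909 on the minus strand (RefSeq, GRCm38.p6). The first match starts at -104 in Ifit1, at -78 in Isg15 and at -75 in Oas3, relative to the start site, and overlapping matches were capitalised as one run.
Ifit1: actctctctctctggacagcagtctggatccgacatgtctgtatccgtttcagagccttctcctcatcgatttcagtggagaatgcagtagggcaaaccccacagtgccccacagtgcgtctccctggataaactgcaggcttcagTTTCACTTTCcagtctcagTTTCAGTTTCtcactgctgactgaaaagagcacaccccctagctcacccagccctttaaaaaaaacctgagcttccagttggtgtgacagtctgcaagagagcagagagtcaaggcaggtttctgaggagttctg
Isg15: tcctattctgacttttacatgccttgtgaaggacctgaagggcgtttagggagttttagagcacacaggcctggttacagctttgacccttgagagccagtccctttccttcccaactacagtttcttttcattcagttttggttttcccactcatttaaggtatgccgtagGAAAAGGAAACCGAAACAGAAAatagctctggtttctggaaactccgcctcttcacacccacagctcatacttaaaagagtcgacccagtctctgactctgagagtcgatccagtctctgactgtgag
Oas3: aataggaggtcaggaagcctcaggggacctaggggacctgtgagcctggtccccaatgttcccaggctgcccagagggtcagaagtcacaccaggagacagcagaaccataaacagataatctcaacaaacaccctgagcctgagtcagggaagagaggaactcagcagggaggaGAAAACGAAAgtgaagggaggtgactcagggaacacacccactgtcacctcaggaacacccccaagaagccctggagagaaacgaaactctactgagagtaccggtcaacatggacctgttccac
The core occurred on either strand in 15 of 28 interferon promoters (53.6%), against 346 of 10079 promoters of all tested genes (3.43%). It occurred in 1 of 41 p53 target promoters and in 0 of 32 promoters of the NRF2 list. The p53 decamer, in turn, occurred in 6 of 28 interferon promoters (21.4%).

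Among the antiviral genes separated upward, line 794 was the highest line, except for Gbp2 and Zbp1, where it was line 801. Ifit1, which binds viral RNA caps, had 20.6, 15.5 and 2.74 CPM in KO line 794 and 8.16, 8.42 and 4.74 CPM in KO line 801, against 1.46, 0.8405 and 1.38 CPM in WT line 565 and 1.23, 0.812 and 0.765 CPM in WT line 752; its log2 fold change was 3.31 ± 0.49, adjusted p 0.03401 by limma-voom and 8.73e-07 by DESeq2. Each KO library was above each WT library, with the smallest margin for library 3 of line 794. Isg15, a ubiquitin-like modifier, had 18.9, 7.49 and 6.96 CPM in KO line 794 and 7.21, 6.63 and 9.98 CPM in KO line 801, against 1.86, 0.934 and 2.24 CPM in WT line 565 and 1.52, 0.664 and 1.42 CPM in WT line 752; its log2 fold change was 2.75 ± 0.57, adjusted p 0.0198 by limma-voom (0.0863 blocked) and 0.00212 by DESeq2. Oas3, an oligoadenylate synthetase that is activated by double-stranded RNA, had 23.4, 15.6 and 3.19 CPM in KO line 794 and 1.84, 2.297 and 1.86 CPM in KO line 801, against 1.54, 0.187 and 0.259 CPM in WT line 565 and 1.09, 0.295 and 0.437 CPM in WT line 752; its log2 fold change was 3.72 ± 0.93, adjusted p 0.0141 by DESeq2. Line 801 lay just above the WT range for Oas3, and libraries 1 and 2 of line 794 far above it. Rtp4, an interferon-induced protein of the receptor transporter family, had 18.3 CPM in 794 and 6.75 CPM in 801, against 1.598 CPM in 565 and 1.29 CPM in 752, a log2 fold change of 3.11 ± 0.58, adjusted p 0.0193 by limma-voom and 2.83e-04 by DESeq2. Gbp3, a guanylate-binding protein, had 3.06 CPM in 794 and 1.501 CPM in 801, against 0.232 CPM in 565 and 0.1097 CPM in 752. It passed the filter on low counts through its KO libraries, so no fold or p-value is given. The list's median and its positive, separated and limma-voom counts include it. WT levels of these 5 genes were under 3 CPM in every library, so the fold changes given rest on few counts. Cxcl10, a chemokine for T cells, had 7.99 CPM in 794 and 5.81 CPM in 801, against 1.34 CPM in 565 and 0.987 CPM in 752, a log2 fold change of 2.57 ± 0.82. Usp18 and Rsad2 overlapped through library 3 of line 794. Usp18, the protease that removes Isg15, had 12.2 CPM in 794 and 5.02 CPM in 801, against 1.37 CPM in 565 and 1.12 CPM in 752, a log2 fold change of 2.79 ± 0.604, adjusted p 0.006095 by DESeq2. Rsad2, encoding viperin, had 14.2 CPM in 794 and 6.17 CPM in 801, against 2.09 CPM in 565 and 1.54 CPM in 752, a log2 fold change of 2.49 ± 0.54, adjusted p 0.00717 by DESeq2. Ly6e, an interferon-inducible surface protein, was the most abundant gene called higher by limma-voom. Ly6e had 1802, 1496 and 1279.5 CPM in KO line 794 and 854, 656 and 812 CPM in KO line 801, against 533, 406 and 513 CPM in WT line 565 and 596, 485 and 458 CPM in WT line 752; its log2 fold change was 1.22 ± 0.31, adjusted p 0.0213 by limma-voom (0.0665 blocked) and 0.0395 by DESeq2. Both KO lines lay above WT, with line 794 the higher.

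Of the regulators, Irf7 and Irf9 of the list, and Irf1, had higher levels in each KO line than in either WT line. Irf7, the factor that amplifies type I interferon, had 22.5 CPM in 794 and 6.198 CPM in 801, against 2.79 CPM in 565 and 2.41 CPM in 752, a log2 fold change of 2.46 ± 0.61, adjusted p 0.0209 by DESeq2. Irf9 had 47.8 CPM in 794 and 32.3 CPM in 801, against 17.5 CPM in 565 and 20.3 CPM in 752, a log2 fold change of 1.08 ± 0.29, adjusted p 0.0352 by limma-voom (0.12000 blocked). Irf1, a factor responsive to interferon gamma, had 69.9 CPM in 794 and 51.2 CPM in 801, against 32.3 CPM in 565 and 35.5 CPM in 752, a log2 fold change of 0.84 ± 0.203, adjusted p 0.0186 by limma-voom. Of 13 genes for viral sensing, 2 were separated downward (1.63% of all genes) and 0 upward (2.19%). Aim2, a sensor of cytosolic DNA, had 0.288 CPM in 794 and 3.23 CPM in 801, against 5.49 CPM in 565 and 6.03 CPM in 752, a log2 fold change of -1.72 ± 0.89. Tbk1, the kinase downstream of several sensors, had 45.3 CPM in 794 and 45.9 CPM in 801, against 50.1 CPM in 565 and 50.95 CPM in 752, a log2 fold change of -0.15 ± 0.13. Neither was called by any test, and the Tbk1 margin was narrow. Epsti1 had 1.11, 1.13 and 0.456 CPM in KO line 794 and 4.56, 5.95 and 6.09 CPM in KO line 801, against 11.5, 11.3 and 10.8 CPM in WT line 565 and 12.03, 10.4 and 15.4 CPM in WT line 752; its log2 fold change was -1.88 ± 0.84, adjusted p 0.0305 by limma-voom (0.0766 blocked). Epsti1 and Mx1 were the members of the interferon list with a negative log2 fold change, and line 794 was the lowest line for Epsti1.

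Genes of antigen presentation had positive values for the most part. Of 14 class I genes, 13 were positive (52.5% of all genes), with a median of 0.37, and 4 were separated, all upward (2.19% of all genes). The median was 0.17 without line 794. B2m, the light chain of class I molecules, had 199.5 CPM in 794 and 153 CPM in 801, against 123 CPM in 565 and 106 CPM in 752, a log2 fold change of 0.63 ± 0.27. Psmb8, an immunoproteasome subunit, had 3.58 CPM in 794 and 3.46 CPM in 801, against 1.02 CPM in 565 and 0.9598 CPM in 752, a log2 fold change of 1.83 ± 0.48. Nlrc5, the class I transactivator, had 1.15 CPM in 794 and 0.783 CPM in 801, against 0.203 CPM in 565 and 0.329 CPM in 752. Nlrc5 stayed near or under 1 CPM in these lines. It passed the filter on low counts through its KO libraries, so no fold is given. The positive and separated class I counts include it. H2-Q4 had 30.01 CPM in 794 and 18.9 CPM in 801, against 11.1 CPM in 565 and 12.6 CPM in 752, a log2 fold change of 1.04 ± 0.28. Reads of H2-Q4 are uncertain, since it belongs to a family of near-identical genes. H2-K1, a classical class I heavy chain that overlapped, had 461 CPM in 794 and 359 CPM in 801, against 360.2 CPM in 565 and 335 CPM in 752. Of 8 class II genes listed, 4 passed the filter on low counts. A gene low in WT can pass it through its KO libraries, which favours positive values. All 4 class II genes tested were positive, with a median of 1.53, or 0.56 without line 794, and none was separated. Without the libraries numbered 3, 2 were separated upward (6.04% of all genes), Cd74 among them. Cd74, the invariant chain, had 11.1 CPM in 794 and 11.4 CPM in 801, against 3.25 CPM in 565 and 3.98 CPM in 752. H2-DMb1, a peptide loader, had 6.401 CPM in 794 and 2.06 CPM in 801, against 1.42 CPM in 565 and 1.73 CPM in 752. No class I or class II gene was called by limma-voom or DESeq2.

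**Figure D3:**
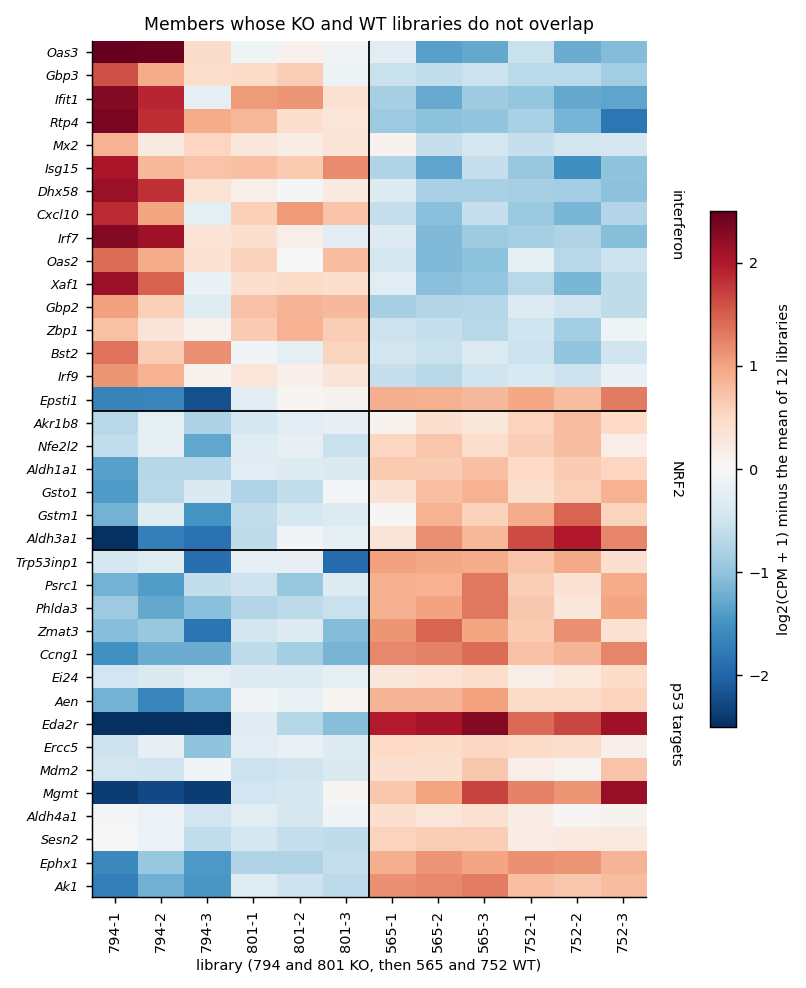
Log2(CPM + 1) minus the gene's mean over 12 libraries, for every separated gene of the interferon, NRF2 and p53 target lists, with KO libraries left of WT libraries; differences beyond 2.5 are drawn at the end of the colour scale. Red marks levels above and blue levels below the gene's mean. For Eda2r, Mgmt and Aldh3a1, line 794 is lowest and line 801 lies between it and the WT lines.

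Genes of glutathione metabolism and detoxification were lower in KO for the most part. NRF2, encoded by Nfe2l2, binds antioxidant response elements and raises many of these enzymes, and its inhibitor Keap1 targets it for degradation. Of 37 tested, 31 were negative (47.4% of all genes were), the median was -0.57, and 6 were separated, all downward (1.63% of all genes). Without the libraries numbered 3, 15 were separated downward (7.17% of all genes) and 1 upward. Limma-voom called 5 lower (0.300% of all genes) and 0 higher, and DESeq2 called 6 lower (0.174% of all genes) and 0 higher. Nfe2l2 had 553, 733 and 344 CPM in KO line 794 and 688, 736 and 583 CPM in KO line 801, against 1238, 1375 and 1162 CPM in WT line 565 and 1298, 1462 and 952 CPM in WT line 752; its log2 fold change was -1.004 ± 0.18, adjusted p 0.0352 by limma-voom (0.067999 blocked) and 7.26e-05 by DESeq2. Its KO libraries all lay below the WT libraries, and library 3 was the lowest in each line. Keap1 had 88.2 CPM in 794 and 87.1 CPM in 801, against 90.4 CPM in 565 and 97.98 CPM in 752.

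The Nfe2l2 promoter is shown because the gene was separated and its promoter holds the antioxidant response element core TGACNNNGC, in capitals, starting at -240 from the start site, at chr2:75704614-75704913 on the minus strand (RefSeq, GRCm38.p6).
Nfe2l2: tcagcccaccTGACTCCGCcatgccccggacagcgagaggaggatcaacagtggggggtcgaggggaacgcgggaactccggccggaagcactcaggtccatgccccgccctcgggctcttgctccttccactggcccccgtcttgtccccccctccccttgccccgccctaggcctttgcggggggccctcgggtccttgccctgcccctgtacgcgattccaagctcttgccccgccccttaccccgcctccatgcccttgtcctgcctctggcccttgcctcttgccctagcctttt
The core occurred on either strand in 13 of 32 promoters of this list (40.6%), against 1723 of 10079 promoters of all tested genes (17.1%). Of the other separated genes of the list, Gsto1, Gstm1, Aldh1a1 and Akr1b8 held no match, and Aldh3a1 had no promoter sequence. Gclm, Txnrd1, Srxn1 and Me1, which held a match, were not separated. A link between the element and the levels was not tested.

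Of the enzymes, aldehyde dehydrogenases and glutathione transferases were among the separated genes. Aldh3a1, an aldehyde dehydrogenase, had 24.02, 46.8 and 41.4 CPM in KO line 794 and 98.9, 147 and 131 CPM in KO line 801, against 192, 341 and 275 CPM in WT line 565 and 478, 620.4 and 363 CPM in WT line 752; its log2 fold change was -2.25 ± 0.64, adjusted p 0.0352 by limma-voom (0.12000 blocked) and 0.0271 by DESeq2. Lines differed within both genotypes, 794 below 801 and 565 below 752. Aldh1a1, a retinaldehyde dehydrogenase, had 50.02, 79.1 and 79.3 CPM in KO line 794 and 109, 105 and 102 CPM in KO line 801, against 206, 204 and 221 CPM in WT line 565 and 185, 203 and 190.4 CPM in WT line 752; its log2 fold change was -1.2005 ± 0.29, adjusted p 0.00535 by limma-voom and 0.0365 by DESeq2. Gsto1, an omega-class glutathione transferase, had 1594 CPM in 794 and 1976 CPM in 801, against 4488 CPM in 565 and 4323 CPM in 752, a log2 fold change of -1.304 ± 0.33, adjusted p 0.0434 by limma-voom (0.0677 blocked) and 0.0231 by DESeq2. Akr1b8, an aldo-keto reductase, had 369.6 CPM in 794 and 435 CPM in 801, against 648 CPM in 565 and 826 CPM in 752, a log2 fold change of -0.87 ± 0.21, adjusted p 0.02703 by limma-voom (0.0969 blocked) and 0.0271 by DESeq2. In Gsto1 and Akr1b8 the KO lines differed less from each other than from WT. Gstm1, a mu-class transferase, had 318 CPM in 794 and 418 CPM in 801, against 831 CPM in 565 and 1216 CPM in 752, a log2 fold change of -1.47 ± 0.62. Gstm3, of the same class, had 16.9 CPM in 794 and 18.8 CPM in 801, against 60.7 CPM in 565 and 90.8 CPM in 752, a log2 fold change of -2.09 ± 0.87. Neither was called, and reads of these related genes may be shared. The widely used NRF2 target Nqo1 overlapped. Nqo1 had 242 CPM in 794 and 121 CPM in 801, against 292 CPM in 565 and 458 CPM in 752. Gclm, a subunit of the enzyme that makes the glutathione precursor, had 149 CPM in 794 and 135 CPM in 801, against 207 CPM in 565 and 233 CPM in 752. Gclm overlapped, though not without the libraries numbered 3. Hmox1, heme oxygenase, and Slc7a11, the cystine transporter, were highest in libraries 1 and 2 of line 794. Hmox1 had 257 CPM in 794 and 69.8 CPM in 801, against 86.4 CPM in 565 and 81.1 CPM in 752. Slc7a11 had 270.3 CPM in 794 and 59.2 CPM in 801, against 96.7 CPM in 565 and 88.8 CPM in 752.

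Several mesenchymal genes were higher in KO, at low to moderate levels. Of 26 listed, 19 passed the filter on low counts, which a gene near 0 in WT can pass through its KO libraries. Of these 19, 17 were positive (52.5% of all genes were), the median was 0.94, and 4 were separated, all upward (2.19% of all genes). Fstl1, a secreted follistatin-like protein, had 24.1, 16.5 and 17.4 CPM in KO line 794 and 12.4, 12.7 and 23.7 CPM in KO line 801, against 0.566, 0.0934 and 0.432 CPM in WT line 565 and 1.45, 0.885 and 0.546 CPM in WT line 752; its log2 fold change was 4.63 ± 1.05, adjusted p 0.00343 by limma-voom and 4.44e-04 by DESeq2. It was near 0 in WT and similar in both KO lines. Pdpn, podoplanin, had 12.01, 9.098 and 26.7 CPM in KO line 794 and 7.501, 9.19 and 14.05 CPM in KO line 801, against 2.59, 1.21 and 3.37 CPM in WT line 565 and 1.81, 1.33 and 3.82 CPM in WT line 752; its log2 fold change was 2.404 ± 0.39, adjusted p 0.0198 by limma-voom and 1.68e-05 by DESeq2. Nes, the intermediate filament nestin, had 42.96 CPM in 794 and 22.5 CPM in 801, against 5.17 CPM in 565 and 6.42 CPM in 752, a log2 fold change of 2.497 ± 0.69, adjusted p 0.0198 by limma-voom and 0.02896 by DESeq2. Lgals1, galectin-1, had 318 CPM in 794 and 104 CPM in 801, against 28.6 CPM in 565 and 28.2 CPM in 752, a log2 fold change of 2.89 ± 0.999, adjusted p 0.03401 by limma-voom (0.0761 blocked). Line 794 was the higher KO line for these 3 genes. The usual markers of the transition overlapped. Vim, vimentin, had 2.91 CPM in 794 and 7.54 CPM in 801, against 2.09 CPM in 565 and 2.11 CPM in 752. Fn1, fibronectin, had 759 CPM in 794 and 1534 CPM in 801, against 922 CPM in 565 and 859 CPM in 752. Cdh1, E-cadherin, had 1408 CPM in 794 and 1861 CPM in 801, against 1832 CPM in 565 and 1790.4 CPM in 752. The fibroblast markers, summed, held 5.67 to 25.05 CPM in KO and 3.36 to 10.9 CPM in WT libraries, and their part in these values was not tested.

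In the extracellular matrix, 21 of 24 collagen and laminin genes were positive (52.5% of all genes), the median was 0.53, and 6 were separated, all upward (2.19% of all genes). Col4a1, a basement membrane collagen, had 181 CPM in 794 and 170.5 CPM in 801, against 114 CPM in 565 and 76.5 CPM in 752, a log2 fold change of 0.88 ± 0.41. Col4a2, its partner chain, had 140.2 CPM in 794 and 111 CPM in 801, against 90.4 CPM in 565 and 56.7 CPM in 752, a log2 fold change of 0.77 ± 0.42. Neither was called. Lamb1, the laminin beta-1 chain, had 242 CPM in 794 and 51.4 CPM in 801, against 22.4 CPM in 565 and 18.98 CPM in 752, a log2 fold change of 2.83 ± 1.04. Col7a1, the anchoring fibril collagen, had 13.95 CPM in 794 and 15.5 CPM in 801, against 3.89 CPM in 565 and 4.39 CPM in 752, a log2 fold change of 1.83 ± 0.96. Col16a1 had 15.5 CPM in 794 and 5.25 CPM in 801, against 1.98 CPM in 565 and 2.66 CPM in 752, a log2 fold change of 2.16 ± 0.61, adjusted p 0.0429 by limma-voom (0.115 blocked). Lamb1 and Col16a1 were highest in line 794, and Col7a1 was even across the KO lines. Col6a1 stayed under 3 CPM in every library. Col6a1 had 0.663 CPM in 794 and 1.76 CPM in 801, against 0.232 CPM in 565 and 0.274 CPM in 752.

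Of 11 Sox factors, 2 were separated, both upward (2.19% of all genes), and both belong to the SoxF group known from endoderm and endothelium. Sox7 had 25.1, 19.7 and 10.04 CPM in KO line 794 and 8.898, 9.61 and 6.94 CPM in KO line 801, against 3.31, 1.96 and 2.07 CPM in WT line 565 and 4.202, 2.88 and 1.75 CPM in WT line 752; its log2 fold change was 2.34 ± 0.58, adjusted p 0.0198 by limma-voom and 0.0201 by DESeq2. Sox17 had 7.09 CPM in 794 and 7.34 CPM in 801, against 2.15 CPM in 565 and 2.36 CPM in 752, a log2 fold change of 1.68 ± 0.51, adjusted p 0.0352 by limma-voom (0.0819 blocked). The endothelial markers, summed, held 1.02 to 5.89 CPM in KO and 1.09 to 2.67 CPM in WT libraries, and their part was not tested. Sox2, a factor of the foregut, overlapped. Sox2 had 20.4 CPM in 794 and 36.6 CPM in 801, against 37.1 CPM in 565 and 36.7 CPM in 752. Of 20 Wnt genes 1 was separated, Dkk2, a secreted Wnt antagonist, against 3.81% of all genes; the share is near that of all genes. Dkk2 had 2.58, 0.966 and 1.25 CPM in KO line 794 and 0.809, 0.425 and 1.18 CPM in KO line 801, against 0, 0.0934 and 0 CPM in WT line 565 and 0, 0 and 0 CPM in WT line 752. It was read in 1 of 6 WT libraries and passed the filter on low counts through its KO libraries, so no fold or p-value is given. Lgr5, the stem-cell receptor of the Wnt pathway, had 6.57 CPM in 794 and 13.6 CPM in 801, against 10.9 CPM in 565 and 8.06 CPM in 752. Lgr5 overlapped between the groups.

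Of 20 listed imprinted and germline genes, 11 passed the filter on low counts, some of them near 0 in WT and kept through their KO libraries, so the list is given by single genes. Dlk1, a Notch-like surface protein, had 3.75 CPM in 794 and 3.099 CPM in 801, against 0.0581 CPM in 565 and 0.302 CPM in 752. It passed the filter through its KO libraries, so no fold or p-value is given. Igf2 and Mest were separated at under 1 CPM in each line. Igf2, a growth factor, had 0.432 CPM in 794 and 0.6198 CPM in 801, against 0.0581 CPM in 565 and 0.0548 CPM in 752. Mest had 0.461 CPM in 794 and 0.457 CPM in 801, against 0 CPM in 565 and 0.1097 CPM in 752. Cdkn1c of this list is given above. H19, the noncoding RNA beside Igf2, overlapped, though not without the libraries numbered 3. H19 had 1.93 CPM in 794 and 11.2 CPM in 801, against 0.174 CPM in 565 and 0.329 CPM in 752. Its dysplastic WT lines lay near 0, as for Dlk1, so no fold or p-value is given. Single genes were separated upward at low levels on other lists, where 2.19% of all genes were. They were 1 of 27 NF-kB genes, 1 of 18 immediate early genes and 1 of 13 retinoid genes. A single gene says little about its list. Il23a, an interleukin-23 subunit of the NF-kB list, had 2.45 CPM in 794 and 4.14 CPM in 801, against 1.45 CPM in 565 and 1.32 CPM in 752. Fosb, an immediate early factor, had 2.34 CPM in 794 and 1.96 CPM in 801, against 0.813 CPM in 565 and 0.9598 CPM in 752. Crabp2, a retinoic acid-binding protein, had 0.577 CPM in 794 and 0.391 CPM in 801, against 0 CPM in 565 and 0.0548 CPM in 752. Of the 13 retinoid genes, 1 was separated downward, Aldh1a1 (1.63% of all genes were).

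Of the largest positive fold changes outside the lists, most were set by line 794. Enpp2, the enzyme autotaxin that makes lysophosphatidic acid, was well above WT in both KO lines. Enpp2 had 100.1, 69.6 and 36.4 CPM in KO line 794 and 24.4, 30.5 and 22.5 CPM in KO line 801, against 3.88, 1.87 and 5.09 CPM in WT line 565 and 3.91, 3.17 and 3.28 CPM in WT line 752; its log2 fold change was 3.802 ± 0.64, adjusted p 0.00343 by limma-voom and 8.73e-07 by DESeq2. Rgs16, a regulator of G protein signalling, had 16.6 CPM in 794 and 7.57 CPM in 801, against 0.9005 CPM in 565 and 1.097 CPM in 752, a log2 fold change of 3.59 ± 1.597, adjusted p 0.0324 by limma-voom (0.0863 blocked). In the following genes line 801 was nearer to the WT lines than to line 794. Cpxm2 had 57.7 CPM in 794 and 2.09 CPM in 801, against 0.697 CPM in 565 and 0.137 CPM in 752. Far2, a fatty acyl-CoA reductase, had 23.6 CPM in 794 and 0.783 CPM in 801, against 0.261 CPM in 565 and 0.192 CPM in 752. Far2 passed the filter on low counts through its KO libraries, so no fold or p-value is given. Cpxm2 and Far2 had less than 5 CPM in line 801. Nefl, a neurofilament subunit, had 42.2 CPM in 794 and 3.72 CPM in 801, against 1.07 CPM in 565 and 1.86 CPM in 752. Megf6 had 42.8 CPM in 794 and 5.74 CPM in 801, against 1.48 CPM in 565 and 2.11 CPM in 752, a log2 fold change of 3.75 ± 0.91, adjusted p 0.00212 by DESeq2. Their order of lines was the same. Bmp4, a bone morphogenetic protein, had 52.8 CPM in 794 and 5.25 CPM in 801, against 2.004 CPM in 565 and 2.41 CPM in 752, a log2 fold change of 3.71 ± 0.998, adjusted p 0.00776 by DESeq2. Grb10, an adaptor that dampens insulin receptor signalling, had 19.5 CPM in 794 and 4.34 CPM in 801, against 1.63 CPM in 565 and 1.21 CPM in 752. Stc1, stanniocalcin, had 19.8 CPM in 794 and 5.22 CPM in 801, against 1.25 CPM in 565 and 1.76 CPM in 752, a log2 fold change of 3.05 ± 0.87, adjusted p 0.0395 by DESeq2. By contrast, Limd2 was even across the KO lines. Limd2 had 56.97 CPM in 794 and 54.7 CPM in 801, against 28.1 CPM in 565 and 30.03 CPM in 752, a log2 fold change of 0.94 ± 0.36, adjusted p 0.03401 by limma-voom (0.0863 blocked).

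Of the largest negative fold changes outside the lists, line 794 was the lowest line in each of the 9 genes, Gstm3, given above, among them. 9030617O03Rik had 9.21, 11.8 and 11.6 CPM in KO line 794 and 17.4, 15.1 and 14.6 CPM in KO line 801, against 90.9, 88.8 and 101 CPM in WT line 565 and 76.4, 67.1 and 80.3 CPM in WT line 752; its log2 fold change was -2.64 ± 0.85, adjusted p 0.0109 by limma-voom. All KO libraries lay far below all WT libraries. Fam212b had 0.317 CPM in 794 and 2.74 CPM in 801, against 16.6 CPM in 565 and 11.2 CPM in 752, a log2 fold change of -3.19 ± 1.23, adjusted p 0.025998 by limma-voom (0.0665 blocked). Zfp750, a zinc-finger factor known from squamous differentiation, had 0.9803 CPM in 794 and 8.25 CPM in 801, against 25.6 CPM in 565 and 20.95 CPM in 752, a log2 fold change of -2.34 ± 0.88, adjusted p 0.0276 by limma-voom (0.0771 blocked). Ddit4l, an inhibitor of mTOR signalling, had 1.01 CPM in 794 and 15.4 CPM in 801, against 36.2 CPM in 565 and 28.9 CPM in 752, a log2 fold change of -1.99 ± 1.04, adjusted p 0.02703 by limma-voom (0.0575 blocked). For Ddit4l, as for Kcnj15, line 801 was nearer to line 752 than to line 794. Kcnj15, a potassium channel, had 0.231 CPM in 794 and 12.9 CPM in 801, against 29.5 CPM in 565 and 21.9 CPM in 752. Dscaml1 had 0.317 CPM in 794 and 3.39 CPM in 801, against 9.61 CPM in 565 and 7.38 CPM in 752. Plbd1 had 1.79 CPM in 794 and 3.49 CPM in 801, against 11.7 CPM in 565 and 8.25 CPM in 752. In these 3 genes line 794 held under 2 CPM. Gm3776 had 8.22 CPM in 794 and 9.04 CPM in 801, against 21.6 CPM in 565 and 46.04 CPM in 752, a log2 fold change of -1.97 ± 0.53, adjusted p 0.0341 by DESeq2. Of 13 chief and parietal genes tested, 1 was separated (3.81% of all genes were), Ckmt1, a mitochondrial creatine kinase. Ckmt1 had 246 CPM in 794 and 264 CPM in 801, against 435 CPM in 565 and 490.4 CPM in 752, a log2 fold change of -0.86 ± 0.19, adjusted p 0.0129 by DESeq2.

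No gene was separated on the lists of keratins, tight junctions, pit cells, mucous neck and SPEM cells, endocrine cells, tuft cells, intestinal metaplasia, foregut transcription factors, Notch, EGF, YAP, glycolysis, cholesterol synthesis and DNA repair. These lists held 9 to 27 tested genes each, and 3.81% of all genes were separated. A count of 0 on a list of that size is near that share and does not show that its genes are unchanged. The most abundant members of these lists show the range. Krt19, a simple-epithelium keratin, had 3962 CPM in 794 and 4062 CPM in 801, against 4073 CPM in 565 and 4557 CPM in 752. Krt8 had 2743 CPM in 794 and 3052 CPM in 801, against 3266 CPM in 565 and 3793 CPM in 752. Cldn18, the claudin of stomach epithelium, had 826 CPM in 794 and 838 CPM in 801, against 1044 CPM in 565 and 1074 CPM in 752. KO and WT libraries overlapped for each of these, and Cldn18 was separated downward without the libraries numbered 3. Clu, a secreted chaperone of regenerating epithelium, had 12004 CPM in 794 and 14349.5 CPM in 801, against 16358 CPM in 565 and 12145 CPM in 752. Wfdc2, a gene of the SPEM list, had 2424 CPM in 794 and 923 CPM in 801, against 840.3 CPM in 565 and 969 CPM in 752. Vil1, the brush border protein villin, had 259 CPM in 794 and 325 CPM in 801, against 371 CPM in 565 and 361 CPM in 752. Line 794 was the highest for Wfdc2, and Vil1 was separated downward without the libraries numbered 3. Dclk1, a marker of tuft cells, had 79.3, 67.9 and 28.3 CPM in KO line 794 and 43.98, 50.2 and 21.3 CPM in KO line 801, against 21.5, 18.2 and 16.7 CPM in WT line 565 and 21.01, 19.8 and 10.7 CPM in WT line 752. Dclk1 was separated upward without the libraries numbered 3. Avil, the most abundant tested gene of the tuft list, overlapped. Avil had 199 CPM in 794 and 140 CPM in 801, against 240 CPM in 565 and 166 CPM in 752. The defining tuft gene Pou2f3 stayed low. Pou2f3 had 1.096 CPM in 794 and 0.359 CPM in 801, against 0.261 CPM in 565 and 0.247 CPM in 752. Hes1, a Notch target, had 72.9 CPM in 794 and 71.5 CPM in 801, against 68.9 CPM in 565 and 69.5 CPM in 752. Erbb2, a receptor of the EGF family, had 189 CPM in 794 and 178 CPM in 801, against 178 CPM in 565 and 235 CPM in 752. Both overlapped. Elf3, an epithelial transcription factor, had 657 CPM in 794 and 598 CPM in 801, against 632 CPM in 565 and 735 CPM in 752. Pkm, pyruvate kinase, had 3997 CPM in 794 and 2634 CPM in 801, against 2409 CPM in 565 and 2844 CPM in 752. Scd2, a fatty acid desaturase, had 3241 CPM in 794 and 2126 CPM in 801, against 2183 CPM in 565 and 2871 CPM in 752. Parp1, a sensor of DNA breaks, had 80.5 CPM in 794 and 107 CPM in 801, against 103 CPM in 565 and 83.3 CPM in 752. For the last 3 genes, library 3 was the lowest library of each line.

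The KO lines were further apart from each other than the WT lines were. The 3 libraries of 794 did not overlap the 3 of 801 in 3465 genes (25.7%), while those of 565 and 752 did not overlap in 2398 genes (17.8%). On the log2(CPM + 1) scale, line means differed by more than 1 in 560 genes higher in 794 and 535 genes higher in 801. The same count was 52 genes higher in 565 and 106 genes higher in 752. Each line is its own culture, so these are values of lines with no test.

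Line 794 lay above both WT lines in 6 of 12 genes of the pit-cell list (41.5% of all genes) and below both in 4 (40.3%). Muc5ac, Gkn1 and Gkn2 of this list were among the 8 genes highest in 794 relative to 801. Muc5ac, the surface mucin, had 183, 875 and 299.95 CPM in KO line 794 and 1.32, 2.21 and 1.02 CPM in KO line 801, against 0.728, 3.08 and 3.798 CPM in WT line 565 and 0.145, 13.1 and 1.53 CPM in WT line 752. Gkn1, gastrokine 1, had 2447, 3054 and 6758 CPM in KO line 794 and 44.7, 36.2 and 52.1 CPM in KO line 801, against 64.1, 68.4 and 68.2 CPM in WT line 565 and 30.5, 36.3 and 41.95 CPM in WT line 752. Line 801 was within or near the WT range for both. Gkn2, gastrokine 2, had 389.9 CPM in 794 and 10.5 CPM in 801, against 12.5 CPM in 565 and 23.3 CPM in 752. Olfm4, a glycoprotein of intestinal stem cells, had 160.1 CPM in 794 and 0.228 CPM in 801, against 0.755 CPM in 565 and 0.192 CPM in 752. The pit marker Tff1 stayed under 1 CPM in every library, and Gkn3, the most abundant gene of the pit list, was present in all lines. Gkn3 had 3292 CPM in 794 and 1713 CPM in 801, against 2469 CPM in 565 and 1729 CPM in 752. In other genes of this list line 794 lay below both WT lines. Muc1, a membrane mucin, had 1188 CPM in 794 and 1799 CPM in 801, against 1729.8 CPM in 565 and 2107 CPM in 752. Psca, a surface antigen of the list, had 36.7, 63.4 and 137 CPM in KO line 794 and 50.2, 49.2 and 66.8 CPM in KO line 801, against 92.6, 108 and 95.98 CPM in WT line 565 and 68.6, 79.4 and 82.2 CPM in WT line 752. Library 3 of line 794 was its highest library, and Psca was separated downward without the libraries numbered 3. Psors1c2 had 79.95 CPM in 794 and 0.391 CPM in 801, against 0.2905 CPM in 565 and 0.1097 CPM in 752. Parvb, an integrin-linked adaptor, had 47.3 CPM in 794 and 0.359 CPM in 801, against 0.261 CPM in 565 and 0.302 CPM in 752. Psors1c2 and Parvb were under 1 CPM in the other 3 lines. Serpinb2, a plasminogen activator inhibitor, had 101 CPM in 794 and 2.22 CPM in 801, against 2.88 CPM in 565 and 0.9598 CPM in 752. Rbp2, a retinol-binding protein, had 68.9 CPM in 794 and 1.08 CPM in 801, against 0.523 CPM in 565 and 3.35 CPM in 752.

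The genes highest in 801 relative to 794 were present in WT and low in 794. Cym, chymosin, a gastric protease, had 0.516, 0.322 and 1.14 CPM in KO line 794 and 228, 277 and 821 CPM in KO line 801, against 28.1, 33.9 and 83.1 CPM in WT line 565 and 57.5, 74.97 and 134 CPM in WT line 752. Library 3 was the highest of each line. Acta2, smooth muscle actin, had 0.951 CPM in 794 and 104 CPM in 801, against 21.6 CPM in 565 and 58.2 CPM in 752. Tagln, the contractile protein transgelin, had 0.721 CPM in 794 and 103 CPM in 801, against 10.3 CPM in 565 and 51.7 CPM in 752. The smooth muscle markers, summed, held 1.03 to 1.53 CPM in 794, 81.6 to 195 CPM in 801 and 17.9 to 94.4 CPM in WT libraries. Sectm1b had 3.66 CPM in 794 and 107 CPM in 801, against 105 CPM in 565 and 86.2 CPM in 752. Cdo1, cysteine dioxygenase, had 3.34 CPM in 794 and 98.03 CPM in 801, against 125 CPM in 565 and 58.4 CPM in 752. In both genes line 801 was close to a WT line or between them. Slco3a1, an organic anion transporter, had 0.346 CPM in 794 and 31.2 CPM in 801, against 5.1996 CPM in 565 and 11.7 CPM in 752. A630076J17Rik had 0.115 CPM in 794 and 32.1 CPM in 801, against 7.29 CPM in 565 and 17.4 CPM in 752.

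**Figure D4:**
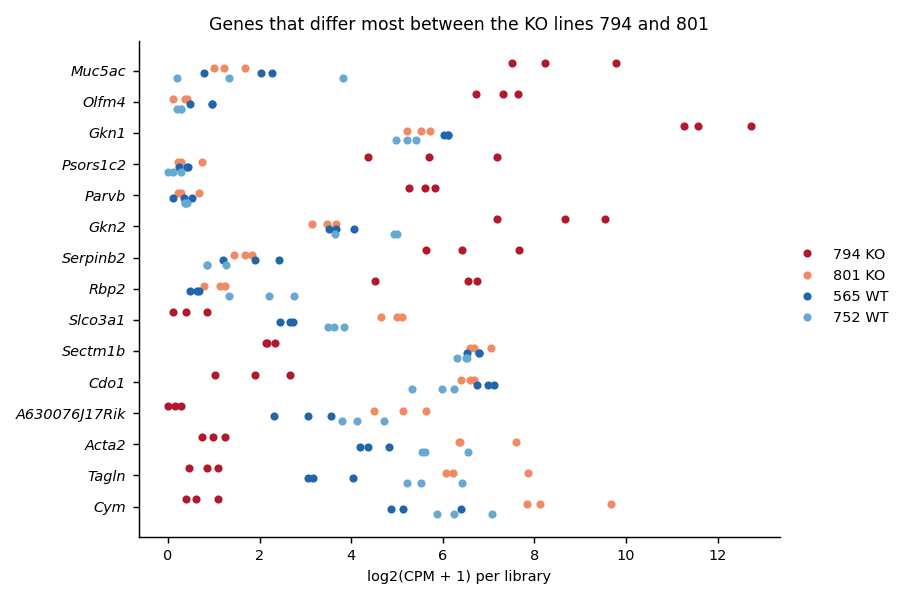
Log2(CPM + 1) in each library of the KO lines 794 and 801 and the WT lines 565 and 752, for genes among the 8 with the largest difference in each direction between 794 and 801. In the upper genes 794 stands apart from the other 3 lines, and in the lower genes 794 is the lowest line.

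The non-dysplastic lines gave the contrast of KO and WT without dysplasia and shared no samples with the dysplastic one. Trp53 had 26.9 CPM in 650 and 4.99 CPM in 1270, against 112 CPM in 300 and 161 CPM in 1269. Its log2 fold change there was -3.1000 ± 0.85, and the interaction, dysplastic minus non-dysplastic fold change, was -0.14 ± 1.12. Over all genes edgeR called 0 interactions, as did limma-voom and DESeq2, and 241 genes (1.79%) had an unadjusted p under 0.05 by edgeR. The non-dysplastic contrast itself had 0 genes past the adjusted threshold and 257 (1.91%) at an unadjusted p under 0.05 by edgeR. No gene is therefore shown to differ between the contrasts, and their values are given side by side. Ccng1 had 241 CPM in 650 and 81.5 CPM in 1270, against 429 CPM in 300 and 936 CPM in 1269, a log2 fold change of -2.08 ± 0.59. Ephx1 had 157 CPM in 650 and 73.3 CPM in 1270, against 246 CPM in 300 and 370.4 CPM in 1269, a log2 fold change of -1.42 ± 0.403. Eda2r had 16.9 CPM in 650 and 0.162 CPM in 1270, against 33.4 CPM in 300 and 104 CPM in 1269, a log2 fold change of -3.03 ± 1.71. As in the dysplastic lines, these 3 p53 targets were lower in KO, and the ex vivo line 1270 was lower than the in vivo line 650. Mdm2 had a log2 fold change of -0.83 ± 0.4003 in dysplastic and -1.403 ± 0.41 in non-dysplastic lines. Of the arrest targets, 8 were negative in dysplastic lines, with a median of -0.77, and 12 in non-dysplastic lines, with a median of -1.505, where 54.5% of all genes were negative.

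Interferon genes had a median log2 fold change of 1.87 in dysplastic lines and 0.18 in non-dysplastic lines. Members that passed the filter through dysplastic KO libraries, such as Gbp3, favour a higher dysplastic median. Ifit1 had 0.737 CPM in 650 and 1.07 CPM in 1270, against 0.429 CPM in 300 and 0.636 CPM in 1269, a non-dysplastic log2 fold change of 0.76 ± 0.496. Its interaction was 2.56 ± 0.68, with an unadjusted p of 0.0076 by edgeR's quasi-likelihood test that missed the threshold after adjustment. The interaction had an unadjusted p under 0.05 in 12 of 38 interferon genes (1.79% of all genes), and it was positive in 36 (55.4% of all genes). The NRF2 list had a median of -0.57 in dysplastic and -0.13 in non-dysplastic lines, with 3 interactions at an unadjusted p under 0.05 and 27 negative (44.6% of all genes). Nfe2l2 had 902 CPM in 650 and 972 CPM in 1270, against 1164 CPM in 300 and 1286 CPM in 1269, a log2 fold change of -0.39 ± 0.18. Cdkn2a had 64.2 CPM in 650 and 58.8 CPM in 1270, against 17.8 CPM in 300 and 20.8 CPM in 1269, a log2 fold change of 1.67 ± 0.37, and its interaction was 1.36 ± 0.52. Cdkn2a was thus higher in KO in both settings, at higher KO levels in the dysplastic lines. The mesenchymal list had a median of 0.94 in dysplastic and 0.96 in non-dysplastic lines. Genes of G2/M and mitosis were positive in 27 of 28 in dysplastic lines and in 0 in non-dysplastic lines, where the median was -0.37; 0 of these interactions had an unadjusted p under 0.05. In the non-dysplastic contrast line 650 lay below both WT lines in 28 of these genes (33.0% of all genes) and line 1270 in 0 (30.6%).

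**Figure D5:**
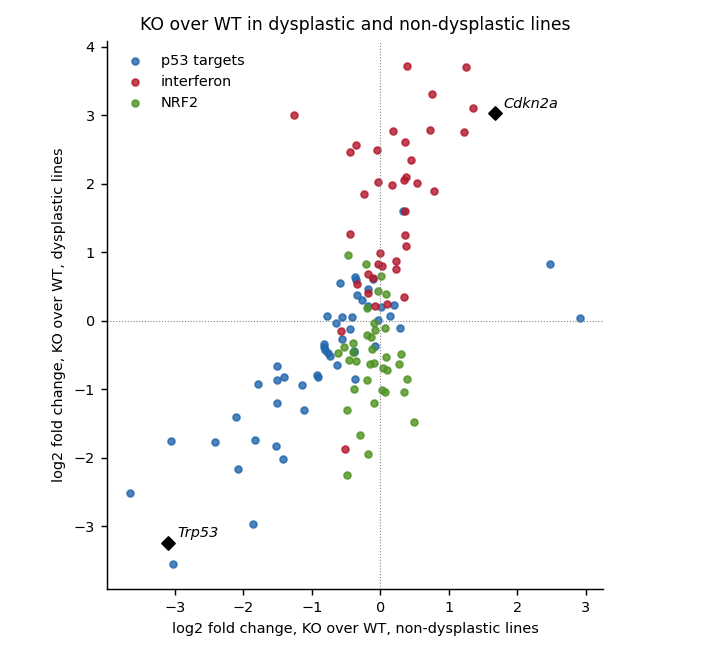
Log2 fold change, KO over WT, in dysplastic lines (vertical axis) and non-dysplastic lines (horizontal axis) of p53 target genes, interferon genes and NRF2 genes, one point a gene, with Trp53 and Cdkn2a as black diamonds. The interferon genes have medians of 1.87 in dysplastic and 0.18 in non-dysplastic lines, and the NRF2 genes -0.57 and -0.13.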

How the data were processed

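Messenger RNA of gastric organoid lines from BL/6 mice was measured in 20 libraries of 8 lines; 12 libraries of 4 dysplastic lines are described. Libraries were made with a Roche Kapa mRNA Hyper kit from 100 ng of RNA, per the labels' protocols. The submitters' processing notes name bcl2fastq, STAR 2.5 and mm9; for the gene annotation, the counting tool and its use of strand, each is not given in the sources used here. The deposited table holds raw counts for 24047 gene symbols, of which 18180 had a count; 0 columns of values were left unused. The labels give no separate animals or cultures for the libraries of a line, so the spread between them may be technical.

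Counts were summed per line and tested with edgeR 4.0.16 (robust quasi-likelihood, TMM scaling, filterByExpr, 13476 genes, 4 means of genotype by dysplasia, 4 residual degrees of freedom, R 4.3.3) with Benjamini-Hochberg adjustment at 0.05. SEs are the absolute log2 fold change over the square root of the F statistic. DESeq2 1.42.0 ran on the same sums and limma 3.58.1 (voom, 12671 genes) on libraries, with lines as correlated blocks. Scripts were tested on simulated data. CPM are TMM-scaled and intervals were not derived from depth. No 2 libraries of a line agreed within sampling noise (chi-square per degree of freedom at least 6.11).

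Libraries of the same number were compared across lines by their deviation from the mean of their line's 3 libraries. These deviations correlated at 0.55 to 0.71 for number 1, 0.66 to 0.84 for number 2 and 0.74 to 0.87 for number 3. The 3 deviations of a line cancel out, so a shift of library 3 shared by the lines also raises the values for numbers 1 and 2. Limma-voom was therefore also run with the number as a block. Why the lines share these deviations is not in the labels.

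Named genes are Trp53, the 15 largest fold changes each way among separated genes of at least 5 mean CPM, up to 4 separated or else 2 most abundant members of each list, the 5 most abundant limma-voom calls each way, and the 8 largest differences each way between 794 and 801. Some genes that these rules name are not reported here. The other genes named were picked with their values in view. The members, the 36 gene lists, the marker lists and the libraries standing apart were chosen with earlier results of these data known. Promoters are RefSeq sequences of build GRCm38.p6, matched by gene symbol for 10079 of 13476 tested genes; since the reads were placed on mm9, no coordinates of the counted genes are given. Alternatives covered the scaling, the filter, the samples and means in the fit, the tool, and leaving out lines, replicate numbers or libraries.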

Additional observations from a re-analysis of the deposited data

Results flagged for a closer look

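Over 159 named genes, 318 groups were examined, each the 6 libraries of a genotype. In 17 of them a single library stood far from the other 5. The cutoff flags about 1 group in 20 for independent, normally distributed values. The libraries here are 3 repeats of each of 2 lines, so that rate does not apply to these groups. In KO, the high libraries were Isg15 at 18.9 CPM and Psors1c2 at 145 CPM in library 1 of line 794, and Muc5ac at 875 CPM in library 2 of line 794. Mdm2 at 78.4 CPM, Pdpn at 26.7 CPM, Psca at 137 CPM and Wfdc2 at 4937 CPM were high in library 3 of line 794. Col6a1 was high in library 1 of line 801 at 2.87 CPM, and Cym at 821 CPM and Tagln at 232 CPM in library 3 of that line. In WT, Epsti1 at 15.4 CPM was high and Ercc5 at 26.003 CPM low in library 3 of line 752. H19 was high in library 1 of line 752 at 0.797 CPM, and Muc5ac in its library 2 at 13.1 CPM. The remaining WT values came from 1 library with reads among libraries at 0: Dkk2 at 0.0934 CPM in library 2 of line 565, Mest at 0.295 CPM in library 2 of line 752 and Crabp2 at 0.219 CPM in library 3 of line 752. Mdm2, Ercc5, Pdpn and Isg15 were separated between KO and WT with these libraries included.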

How the results depend on the processing

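In the dysplastic lines, edgeR's count of 0 genes held under each of its alternatives except without line 801, where it was 3. Limma-voom called 101 and DESeq2 69. Leaving out lines or libraries with these 2 tools was chosen after seeing the data: without the libraries that stood apart, limma-voom called 1 and DESeq2 68, and without single lines limma-voom called 0 to 987 and DESeq2 2 to 535. The 514 separated genes became 1780 without the libraries that stood apart, 1031 to 2660 without single lines and 873 to 1780 without a replicate number; fewer libraries a side make separation easier by construction. The log2 fold change of Trp53, -3.24 by edgeR, was -3.24 by DESeq2 (adjusted p 0.00472), -3.51 by limma-voom (0.00172) and -3.32 by DESeq2 without the libraries that stood apart (0.00456). By limma-voom without those libraries it was -3.66 and its call was lost (0.0586), as it was by limma-voom without 565 or 752 and by DESeq2 without 794, 565 or 752. It ranged over -4.35 to -2.61 by limma-voom, -4.31 to -2.63 by DESeq2 and -4.32 to -2.63 by edgeR without single lines. With a line left out, the lone line of that group is assumed to vary like the others. The interaction could not be estimated from the 4 dysplastic lines alone; every other alternative run called 0 interactions. No KO over WT log2 fold change given above for the dysplastic lines changed sign under the alternatives run. Of 159 named genes compared, 10 had opposite signs by edgeR and limma-voom; none of these was called by any tool, and no fold is given for them above. The widest were Cym (1.47 by edgeR and -2.28 by limma-voom), A630076J17Rik (0.38 and -2.62), Slco3a1 (0.90 and -1.52), Acta2 (0.40 and -1.97) and Tagln (0.74 and -1.61).

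With the replicate number as a block, limma-voom called 38 genes (26 higher and 12 lower), 38 of them among its 101 calls without the block, and Trp53 was -3.52 (adjusted p 0.00593). Calls of named genes lost with the block are given beside them; the block changed no other call of the named genes. Low counts limit the precision for genes near 1 CPM, where a library of 5.67e6 counts holds few reads.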

Other observations

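Sat2, the next gene measured here beyond Trp53 on the side away from Wrap53 in the RefSeq order, was higher in KO. It encodes a protein of the spermidine acetyltransferase family, and it was picked out after its values were seen. Sat2 had 4.27, 3.704 and 9.47 CPM in KO line 794 and 3.68, 3.23 and 5.75 CPM in KO line 801, against 1.21, 0.747 and 1.38 CPM in WT line 565 and 0.362, 0.517 and 1.09 CPM in WT line 752. All KO libraries lay above all WT libraries, and the log2 fold change was 2.43 ± 0.501, adjusted p 0.0222 by limma-voom, and 0.0035003 by DESeq2. The non-dysplastic lines, which share no samples with these, held 4.08 CPM in 650 and 4.14 CPM in 1270, against 0.811 CPM in 300 and 1.39 CPM in 1269, a log2 fold change of 1.89 ± 0.496. Wrap53, the measured gene on the other side of Trp53, overlapped, with 18.02 CPM in 794 and 17.7 CPM in 801, against 18.3 CPM in 565 and 15.7 CPM in 752. Fxr2, the measured gene after Sat2, overlapped as well, with 70.7 CPM in 794 and 72.5 CPM in 801, against 66.5 CPM in 565 and 59.1 CPM in 752. Whether Sat2 reads come from its own transcript was not tested.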
